A study of Mus musculus with 5 samples.

Results

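The CCN family is a small group of secreted, cysteine-rich matricellular proteins, named after its founding members Cyr61, Ctgf and Nov. The 5 genes described here, Cyr61, Ctgf, Nov, Wisp1 and Wisp2, were taken by symbol from the 14454 genes listed for each line, under the names in use before they became Ccn1 to Ccn5. RNA was sequenced from 5 lines of NIH/3T3, an immortalised line of mouse embryonic fibroblasts, each with an integrated human histone H2A expressed as an EGFP fusion. The histone was wild type in 1 line (wt); in 4 lines, numbered 3, 6, 15 and 18, it carried T120D, which turns a phosphorylatable threonine of the histone tail into aspartate. All lines were untreated, and grown in DMEM with 10% fetal calf serum and 10 µg/ml gentamicin. The labels do not say whether the T120D lines are separate clones or cultures, the wt line has no replicate, and transgene expression was not analysed here.

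CCN proteins sit in the pericellular matrix and act through integrins, heparan sulphate proteoglycans and LRP receptors, and by binding growth factors. Most members consist of an IGF-binding-protein-like module, a von Willebrand type C module, a thrombospondin module and a C-terminal cystine knot, and Wisp2 lacks the knot. Cyr61 and Ctgf are rapidly induced genes that respond to serum, to TGF-beta, and to mechanical and cytoskeletal cues through YAP and TAZ with the TEAD factors and through SRF. In fibroblasts they are known for roles in adhesion, matrix production and fibrosis, while Wisp1 and Wisp2 were first described as genes induced by Wnt1.

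Of the 5 members, 1 had an entry in the table of RefSeq promoter sequences, Cyr61. Its promoter is shown because TEAD factors are the best-known direct regulators of this gene, which was among the members that were higher in the T120D lines. The 250 bases before its transcription start lie at chr3:145649986-145650235 on the minus strand of GRCm38.p6 (the authors used mm9) and are printed 5′ to 3′ with the TEAD core and the TATA motif in capitals.

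Cyr61 promoter: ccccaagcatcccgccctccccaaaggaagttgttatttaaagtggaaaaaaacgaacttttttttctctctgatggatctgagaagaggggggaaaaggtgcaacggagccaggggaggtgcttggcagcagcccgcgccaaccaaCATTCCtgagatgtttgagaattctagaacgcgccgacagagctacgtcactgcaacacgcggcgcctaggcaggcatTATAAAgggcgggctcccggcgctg

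The TEAD core GGAATG, searched on both strands, occurred once as CATTCC, from 103 to 98 bases before the start, and the TATA motif TATAAA from 25 to 20 bases before it. In the same window of all 32851 promoters of the table, the TEAD core was present in 12.6% and TATAAA, on either strand, in 12.4%. The SP1 core GGGCGG occurred at 2 places in the Cyr61 window (32.7% of all promoters held at least 1), and the cAMP response element core TGACG at 1 place (17.8%). The AP-1 motif TGAGTCA and the SMAD core CAGAC had 0 matches in these letters (4.5% and 42.2% of all promoters). None of these motifs overlapped a TEAD match, and a match describes letters, not binding.

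The values are RPKM, reads scaled to transcript length and to library size. The 5 libraries were shallow, with an estimated 2520000 to 2720000 reads and a summed RPKM of 158613.7 to 160825.1. At this depth Nov was taken as 1 read in every line, which set the relative depths. For each other member a transcript length near an annotated one was then fitted. With these lengths the values fell on whole reads to within 0.0069 reads, a distance that the fit itself made small. Reads behind each value are given below. They are inferred from the RPKM, and their exact Poisson 95% intervals cover counting error only. Fibroblast identity was checked with markers. Of 10 fibroblast markers, all were listed, with 827 ± 22.3 RPKM (SD, n = 4) for Vim in T120D and 701 in wt. No epithelial, endothelial or skeletal muscle marker found in the tables exceeded 0.799 RPKM in any line, and the macrophage marker Cd68 reached 1.46 RPKM in the wt line.

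The members did not all differ from the wt line in the same direction. Ctgf and Cyr61 were many times higher in every T120D line than in the wt line, Wisp2 was lower in every T120D line, Wisp1 differed by too little to be called, and Nov was at the edge of detection throughout. Of the 5 members, 4 passed the expression filter (5-line mean of 1 RPKM or more), and each of these was above 7 RPKM in all lines, so none passed through 1 group alone. Of these 4, 2 were called higher and 1 lower (limma, adjusted p under 0.05 over 10052 tested genes), where 7.65% of all tested genes were called higher and 5.45% lower, 13.1% in all.

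Ctgf, also known as Ccn2, is a growth factor-like protein of wound repair and fibrosis that also binds TGF-beta. Its expression was 213.7 RPKM in T120D line 3, 169.2 in line 6, 194.9 for line 15 and 191.4 for line 18, against 14.5 in the wt line. The 4 T120D lines lay far above the wt line, and the lowest of them, line 6, was still 11.7-fold higher. The wt value rested on 95 reads (95% interval 76.9 to 116) and the T120D values on 1101 to 1298. The mean of the T120D lines was 13.3-fold that of wt, and the difference of log2(RPKM + 1) was 3.64 (SE 0.12, 95% confidence interval 3.36 to 3.91, limma adjusted p = 2.81e-06). Among all 10052 tested genes it was the second highest difference, rank 2.

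Cyr61, or Ccn1, is a ligand of several integrins that promotes adhesion and migration of fibroblasts. It was at 187.0 RPKM in line 3, 162.4 in line 6, 133.7 for line 15 and 133.6 for line 18, against 28.6 in wt. Again the groups did not overlap, and the distance to wt was smaller than for Ctgf, from 4.68-fold in line 18 to 6.54-fold in line 3. The reads were 714 to 959 in the T120D lines and 158 in wt (95% interval 134 to 185). The T120D mean was 5.40-fold that of wt, with a log2 difference of 2.38 (SE 0.17, 95% confidence interval 1.98 to 2.77, limma adjusted p = 0.000108), rank 18 of the tested genes. For 31.1% of tested genes wt was below every T120D line, so the lack of overlap alone sets neither gene apart.

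**Figure D1:**
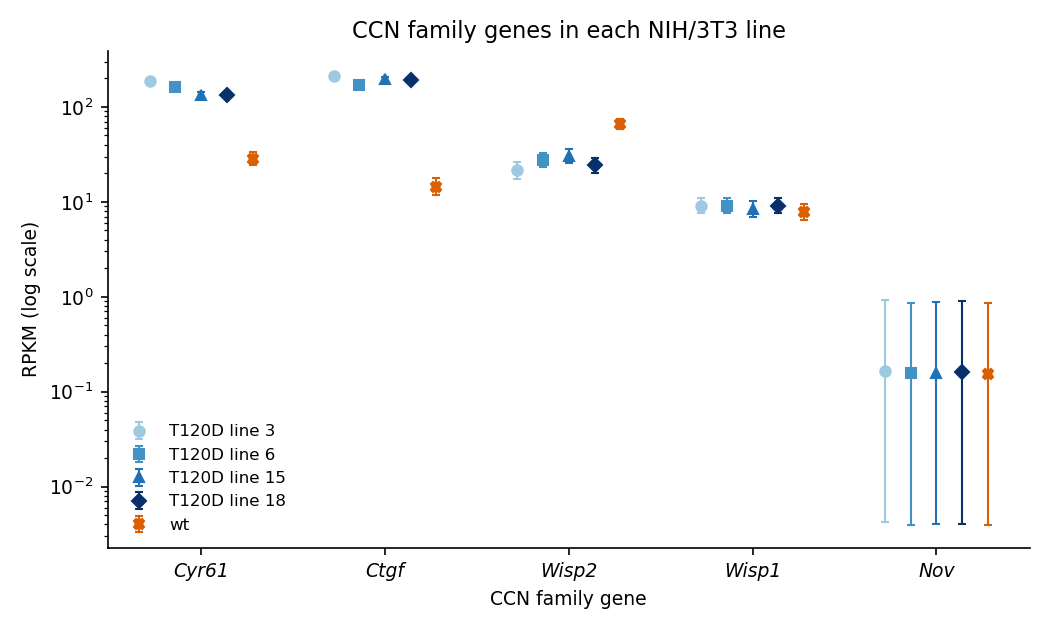
RPKM on a log axis of the 5 CCN genes in each line (points), with bars for the exact Poisson 95% interval of the inferred reads. Ctgf and Cyr61 are lowest and Wisp2 highest in the wt line, while the Wisp1 and Nov values of all lines lie within each other's intervals.

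Wisp2, or Ccn5, is the member without the cystine knot and is known mainly as an antiproliferative and antifibrotic protein. It moved the other way: it was at 21.6 RPKM in line 3, 27.7 in line 6, 30.3 for line 15 and 24.4 for line 18, against 66.1 in wt. The highest T120D line was 2.18-fold below the wt line and the lowest 3.06-fold below it. Reads were 97 to 143 in the T120D lines and 320 in wt (95% interval 286 to 357), and no T120D interval reached that of wt. The wt level was 2.54-fold the T120D mean, with a log2 difference of -1.33 (SE 0.17, 95% confidence interval -1.71 to -0.94, limma adjusted p = 0.00169), rank 131 from the lowest. For 32.3% of tested genes wt was above every T120D line. With no expression filter the limma adjusted p was 0.047, the highest of 12 alternatives.

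Wisp1, or Ccn4, a Wnt-inducible member that binds the proteoglycans decorin and biglycan, differed little between the groups. It was at 9.13 RPKM in line 3, 9.12 in line 6, 8.45 for line 15 and 9.15 for line 18, against 7.89 in wt. These values rested on 116, 124, 113, 121 and 108 reads in the same order, and the wt interval of 88.6 to 130 reads held all of the T120D read numbers. All 4 T120D lines were above wt, by 1.07-fold to 1.16-fold, and the log2 difference of 0.16 was not called (SE 0.15, limma adjusted p = 0.524). Its 95% confidence interval ran from -0.18 to 0.51, so a modest change in either direction was not detectable at this depth.

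Nov, or Ccn3, is often described as opposing Ctgf in matrix production. It was at 0.167 RPKM in line 3, 0.156 in line 6, 0.159 for line 15, 0.160 for line 18 and 0.155 in wt, each taken as 1 read. The small differences between these values follow the depth of the libraries, no fold is given, and the gene was not tested. A single read allows up to 5.57 reads, 0.864 RPKM in the wt line, by the exact 95% interval. Wisp3 (Ccn6), the remaining gene of the family and not among the 5, was likewise sparse, with 0 reads in lines 3 and 6, 1 in line 15, 2 in line 18 and 3 in wt, all at or under a floor of 3 reads.

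Because the members moved in different directions, the make-up of family expression differed between the lines. Summed RPKM of the 5 genes was 381.6 ± 33.6 (SD, n = 4) in the T120D lines and 117.2 in wt, 3.26-fold apart. In the wt line Wisp2 supplied 56.4% of that sum, Cyr61 24.4%, Ctgf 12.4% and Wisp1 6.73%. In the T120D lines Ctgf supplied 50.5 ± 3.49% and Cyr61 40.3 ± 3.99% (SD, n = 4), and Wisp2 fell to 6.89 ± 1.38%. RPKM is scaled to length, so levels can be set beside each other between genes. In wt the order from high to low was Wisp2, Cyr61, Ctgf, Wisp1 and Nov, and the counting intervals of neighbours in that order did not overlap. In each T120D line the order was Ctgf, Cyr61, Wisp2, Wisp1 and Nov, but the ranges of Ctgf and Cyr61 over the T120D lines overlapped. In line 6 their counting intervals overlapped too, at 159 to 180 RPKM for Ctgf and 152 to 173 for Cyr61.

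**Figure D2:**
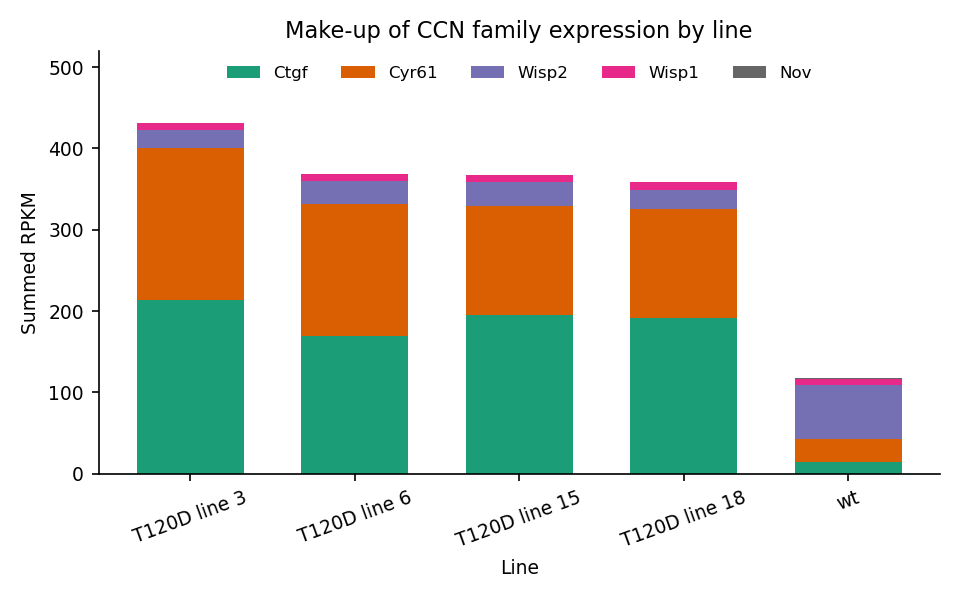
Stacked bars of RPKM of the 5 CCN genes in each line, from 0. Ctgf and Cyr61 make up most of each T120D bar, and Wisp2 makes up 56.4% of the wt bar. Nov is too low to be seen.

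Ctgf and Cyr61, though both higher, did not keep a fixed proportion. The ratio of Ctgf to Cyr61 RPKM was 1.14 in line 3, 1.04 in line 6, 1.46 for line 15 and 1.43 for line 18, against 0.508 in wt. All T120D lines were above the wt line, and they formed a higher pair (15 and 18) and a lower pair (3 and 6). On the log2(RPKM + 1) scale the mean T120D ratio exceeded that of wt by 1.26, where the T120D lines had an SD of 0.24. An exact permutation of the wt label over the 5 lines gave a one-sided p of 0.2, which is the smallest that 1 line against 4 allows.

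Among the T120D lines the members varied to different degrees. The coefficient of variation was 16.7% for Cyr61, 14.5% for Wisp2, 9.48% for Ctgf and 3.79% for Wisp1. The SD of log2(RPKM + 1) over the T120D lines was 0.23 for Cyr61 and 0.20 for Wisp2, above the median of 0.17 over all tested genes, and 0.14 for Ctgf and 0.05 for Wisp1, below it. Line 3 had the highest value of Ctgf and of Cyr61 and the lowest of Wisp2. For Cyr61 the interval of line 3, 175 to 199 RPKM, lay above those of lines 15 and 18, both 124 to 144 RPKM. Without line 3 the log2 differences from wt were 3.58 for Ctgf, 2.28 for Cyr61 and -1.24 for Wisp2.

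**Figure D3:**
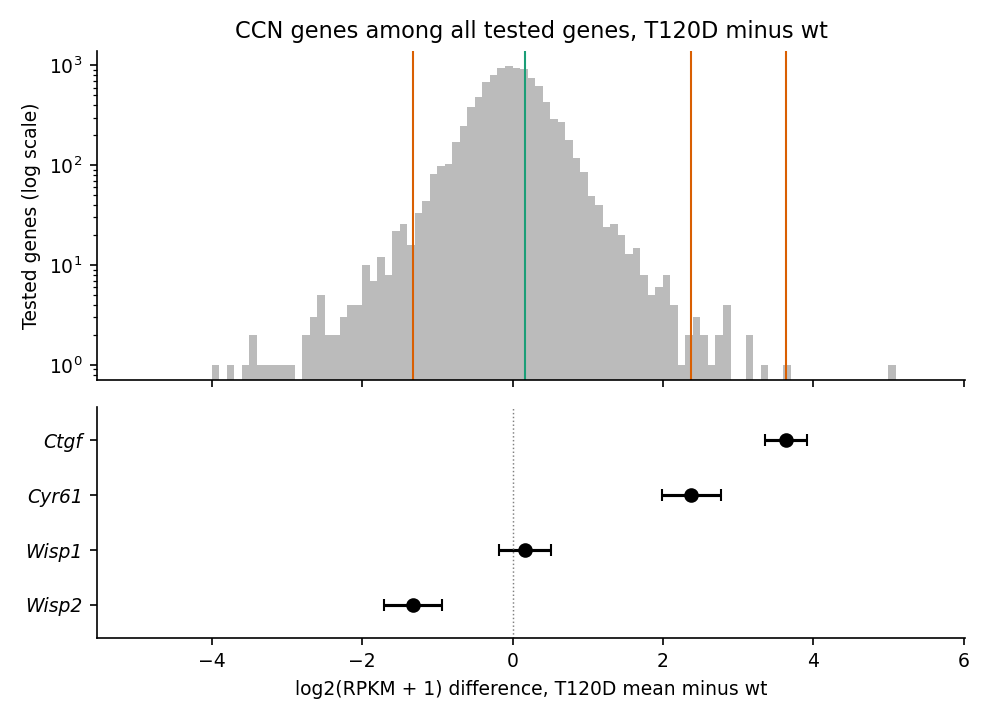
Upper panel, number of tested genes (log axis) by log2(RPKM + 1) difference, T120D mean minus wt, with vertical lines at the CCN genes (orange called, green not called). Lower panel, the same differences with limma 95% confidence intervals: Ctgf at 3.64 and Cyr61 at 2.38 lie far out in the upper tail, and Wisp1 at 0.16 lies near the centre.

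The genes whose 4 line-minus-wt differences were most like those of each member, by root mean square distance on the log2 scale over the 4 T120D lines, were listed as a description; all share the wt line. Nearest to Ctgf were Rgs16, a regulator of G-protein signalling (distance 0.34), Ptgs2, the inducible cyclooxygenase gene (0.48), and Thbs1, which encodes thrombospondin 1 (0.48). Nearest to Cyr61 were Tnc, which encodes the matricellular protein tenascin C (0.13), Cck, the cholecystokinin gene (0.22), and Hbegf, a ligand gene of the EGF receptor (0.22). Tnc was at 20.6 ± 2.004 RPKM (SD, n = 4) in the T120D lines and 3.00 in wt, and Cck was at 3.61 ± 0.993 RPKM and listed at 0 in wt. Nearest to Wisp2 were Lrrc8d, Rin2 and Timp3 (0.08, 0.10 and 0.13). Timp3, an inhibitor of metalloproteases that is bound to the matrix, was at 35.3 ± 5.32 RPKM (SD, n = 4) in the T120D lines and 94.6 in wt. Nearest to Wisp1 were Vash2, Stub1 and Bcap29, none of them called. The lists for Cyr61, Ctgf and Wisp2 depended on the pseudocount. Cck, Hbegf and Rgs16 were under 1 RPKM in wt, but genes above it there moved too. On log2(RPKM + 0.1), an alternative chosen after seeing the data, the distance to Cyr61 was 0.34 for Tnc, 0.90 for Hbegf and 2.76 for Cck. They came at places 16, 121 and 7405 of 10051 genes. The distance of Rgs16 to Ctgf became 0.87 (place 18), and those of Ptgs2 and Thbs1 were 0.36 and 0.45 (places 4 and 8). Lrrc8d and Rin2 moved to 0.37 and 0.23 from Wisp2 (places 153 and 29), while Timp3 stayed at 0.13 (place 3). The genes named for Wisp1 remained its nearest 3.

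Of 15 listed genes for YAP, TAZ, TEAD, SRF, its MRTF cofactors, SMAD and the Wnt pathway, 14 were tested and 0 were called by limma. Over all tested genes 13.1% were called, so few calls would be awaited in a list of 14. At an unadjusted limma p under 0.05, 2 were higher and 0 lower, a threshold at which the share of all tested genes was not counted. Their median log2 difference was 0.13, against -0.02 over all tested genes. Yap1 was at 22.9 ± 1.94 RPKM (SD, n = 4) in the T120D lines and 26.0 in wt (log2 difference -0.18, limma adjusted p = 0.44). Ctnnb1, which encodes beta-catenin, was at 75.9 ± 4.14 RPKM against 88.4 (-0.22, limma adjusted p = 0.203). Tead4, a TEAD factor gene named after its value was seen, had the highest difference, 0.51 (limma adjusted p = 0.0603). It was the 1 gene of the list called higher in 3 of 12 alternatives, with a limma adjusted p of 0.0304 when no filter was applied, 0.0454 at a mean of 5 RPKM or more and 0.0495 after quantile normalization. mRNA does not report the localisation or phosphorylation through which these factors are mainly controlled.

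Of 14 listed signals and receptors that induce CCN genes, 10 were tested and at 1 RPKM or more in both groups, with 1 higher and 3 lower in T120D (7.65% and 5.45% over all tested genes) and a median log2 difference of -0.31. Those shares include genes that passed the filter through 1 group alone. Higher was F2r, the thrombin receptor gene, with 40.1 ± 2.53 RPKM (SD, n = 4) versus 24.5. Lower were 2 TGF-beta ligand genes, Tgfb2 at 1.26 ± 0.323 RPKM against 5.36 and Tgfb3 at 5.58 ± 0.271 against 13.2. The third was Lpar1, a receptor gene for lysophosphatidic acid, at 18.4 ± 2.41 RPKM against 33.95. The limma adjusted p of these 4 genes ran from 0.00355 to 0.0119. The call of Lpar1 ended when no filter was applied (limma adjusted p of 0.0846). Edn1, which encodes endothelin 1, was at 2.90 ± 0.912 RPKM (SD, n = 4) in the T120D lines and 0.469 in wt. It passed the filter through the T120D lines alone, so it is described with no test.

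Of 15 genes for integrin subunits and co-receptors of CCN proteins, 9 were tested, with 1 higher, 1 lower (13.1% of all tested genes were called) and a median log2 difference of 0.18. Itgb1, the integrin beta 1 subunit shared by several CCN-binding integrins, was at 97.4 ± 4.85 RPKM (SD, n = 4) versus 68.8 (log2 difference 0.49, limma adjusted p = 0.014). Igf2r, the mannose 6-phosphate receptor gene, was at 8.595 ± 1.396 RPKM against 15.8 (-0.82, limma adjusted p = 0.0275). By limma without a trend both calls ended, with adjusted p of 0.0891 and 0.0588. The call of Igf2r also ended without line 18 (0.0524), with lines 3, 15 and 18 averaged (0.0595) and with no filter (0.12). Calls were gained as well, and with no filter 3 genes of the list were higher. Sdc4, at 46.6 ± 7.99 RPKM (SD, n = 4) against 67.8, was not called in the main fit (limma adjusted p = 0.0787). It was called lower after quantile normalization (0.0493) and without line 6 (0.00826).

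Among 14 listed binding partners of CCN proteins, 8 were tested, with 0 higher, 2 lower (5.45% of all tested genes were lower) and a median log2 difference of -0.31. At an unadjusted limma p under 0.05, 0 were higher and 3 lower, a threshold at which the share of all tested genes was not counted. Fn1, which encodes fibronectin, was at 140 ± 15.2 RPKM (SD, n = 4) in the T120D lines and 376 in wt, 2.70-fold lower (log2 difference -1.43, limma adjusted p = 0.000300). Dcn, the decorin gene, was at 15.3 ± 6.12 RPKM against 35.2 (-1.21, limma adjusted p = 0.043). Its T120D values were uneven, 24.5 RPKM in line 6 and 11.7 to 12.7 in the others. The call of Dcn ended without line 3, 15 or 18 (limma adjusted p of 0.0822, 0.0675 and 0.0791), and also without a trend (0.0978), with no filter (0.24) and with lines 3, 15 and 18 averaged (0.119).

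Cyr61 and Ctgf belong to a published YAP and TAZ signature whose other 20 genes were counted. Of 17 tested, 6 were higher and 1 lower, where 7.65% of all tested genes were higher and 5.45% lower, and the median log2 difference was 0.15. Crim1, a transmembrane gene with an IGF-binding-protein-like module, was at 26.5 ± 1.92 RPKM (SD, n = 4) versus 5.75 in wt, and Ankrd1, a stress-induced ankyrin repeat gene, at 26.0 ± 2.67 RPKM against 8.52. Lats2 and Amotl2, whose products restrain YAP, were at 13.6 ± 2.74 against 4.95 and at 92.0 ± 6.43 against 38.2 RPKM. Nuak2, a kinase gene, was at 8.71 ± 2.03 RPKM against 4.235, and Axl, a receptor tyrosine kinase gene, at 135 ± 3.64 RPKM against 78.2. Their log2 differences, 0.78 to 2.02, lay below those of Cyr61 and Ctgf. The 1 lower gene was Tgfb2, which is also counted among the signals above. The call of Nuak2 ended without line 3 or 15 (limma adjusted p of 0.0622 and 0.0809), without a trend (0.0866) and without the filter on low values (0.19), and that of Lats2 without the filter (0.104).

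Of the signature genes, 14 had promoters in the RefSeq table, 16 in all, and 5 of these 16 promoters held the TEAD core within 250 bases before the start, those of Amotl2, Ankrd1, Axl, Crim1 and Ptpn14. Over all promoters of the table the share was 12.6%, and no relation between the motif and the differences was tested.

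Cyr61 is also an immediate early gene, induced by serum without new protein synthesis. Of 19 such genes 14 were tested, with 4 higher and 0 lower (7.65% and 5.45% over all tested genes) and a median log2 difference of 0.31. Nr4a1, an orphan nuclear receptor gene, was at 9.37 ± 0.579 RPKM (SD, n = 4) versus 1.63, and Dusp1, a MAPK phosphatase gene, at 31.5 ± 7.94 against 10.2. Ier3 was at 23.3 ± 3.17 against 8.075 RPKM, and Fosl1, an AP-1 factor gene, at 44.4 ± 10.2 against 16.55. Egr1, named after its value was seen, had the lowest difference, -0.87, and was not called (13.9 ± 4.52 RPKM against 25.3, limma adjusted p = 0.0901). Without line 6 it was called lower (log2 difference -1.06, limma adjusted p = 0.0102). The calls of Dusp1 and Fosl1 ended when no filter was applied (limma adjusted p of 0.0963 and 0.108).

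For the Wnt feedback targets set beside Wisp1 and Wisp2, 6 of 11 genes were listed and 2 tested, with 1 called (13.1% of all tested genes were called). Apcdd1, which encodes a Wnt inhibitor, was higher, at 7.31 ± 1.16 RPKM (SD, n = 4) versus 2.10 (log2 difference 1.41, limma adjusted p = 0.00396), and Znrf3 was not called (0.37, limma adjusted p = 0.41). Lef1 was below the filter, at 0.849 ± 0.427 RPKM against 0.797. Among other genes with the IGF-binding-protein-like module, 5 of 13 were tested, with 1 higher and 1 lower (7.65% and 5.45% over all tested genes). Crim1, also counted in the signature above, was higher and Kazald1 lower (1.57 ± 0.536 RPKM against 5.85, limma adjusted p = 0.0149, and 0.0902 without the filter on low values).

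**Figure D4:**
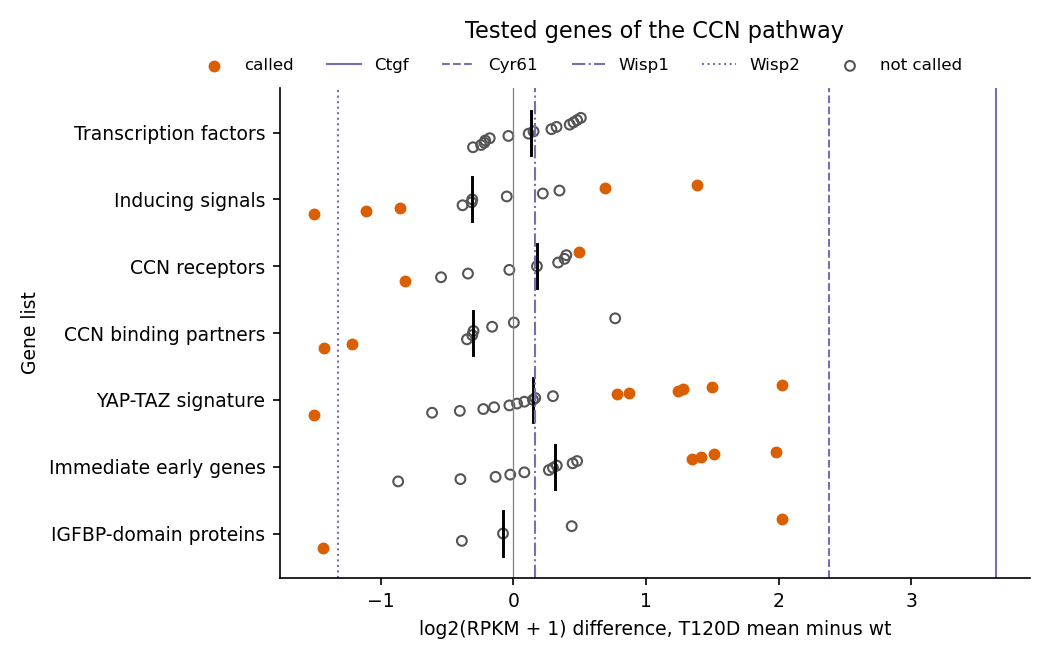
log2(RPKM + 1) differences, T120D mean minus wt, of the tested genes of 7 lists set beside the CCN genes (filled, called by limma at an adjusted p under 0.05; open, not called; black bars, medians). The violet lines mark the CCN genes, and the signature genes reach 2.02, short of Cyr61 at 2.38 and Ctgf at 3.64. Edn1, which passed the filter through the T120D lines alone, is among the points of the inducing signals.

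The genes beside the members on the chromosome were counted, 5 tested genes on each side in the order of GRCm38, to be read against the 13.1% of all tested genes that were called. That share includes genes that passed the filter through 1 group alone. The share of all tested genes at an unadjusted p under 0.05 was not counted, so unadjusted counts have no background here. Near Cyr61 on chromosome 3, 9 of 10 were at 1 RPKM or more in both groups. Among these 1 was called, a share close to that background. It was Ddah1, the next tested gene on one side and the gene of an enzyme that degrades inhibitors of nitric oxide synthase, at 23.0 ± 4.04 RPKM (SD, n = 4) versus 8.12. Its limma adjusted p was 0.0027, and it rose to 0.0571 when no filter was applied. Sep15 and Sh3glb1, the most abundant genes there, had log2 differences of -0.007 and 0.09 and were not called. Of the 10 genes nearest Ctgf on chromosome 10, 8 were at 1 RPKM or more in both groups, and 0 of these were called by limma. Over all 10, 2 were higher and 1 lower at an unadjusted limma p under 0.05. Stx7 and Epb4.1l2, the most abundant of them, differed by 0.07 and -0.05 on the log2 scale. The 2 higher ones, Raet1d and Tmem200a, were at 0.289 and 0.267 RPKM in wt and passed the filter through the T120D lines alone. The calls of Raet1d in 3 of 12 alternatives are therefore not counted. For the 10 nearest Wisp1 on chromosome 15, 0 were called by limma and 0 were under an unadjusted p of 0.05, and the abundant Asap1 and Chrac1 differed by -0.15 and -0.39. Of the 10 nearest Wisp2 on chromosome 2, 9 were at 1 RPKM or more in both groups, and 0 of these were called by limma. Over all 10, 2 were higher, Ada among them, and 3 lower at an unadjusted limma p under 0.05. Ada was at 0.431 RPKM in wt and passed through the T120D lines alone, so its calls are not counted. In 5 of 12 alternatives 1 gene was called lower, Slpi or Sdc4. Ywhab and Sdc4, the most abundant, differed by 0.12 and -0.55.

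The tested genes on either side of Nov on chromosome 15 both had their higher value in wt, and both passed the filter through the wt line alone, so they are described with no test. Enpp2, which encodes autotaxin, was at 0.144 to 0.234 RPKM in the T120D lines and 10.9 in wt. Tnfrsf11b, which encodes osteoprotegerin, was at 0.269 to 0.917 RPKM in the T120D lines and 2.86 in wt. Of the other 8 genes around Nov, 1 likewise passed through 1 group, and among the 7 at 1 RPKM or more in both groups 0 were called by limma.

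Of 9 tested fibroblast markers 6 were lower and 1 higher in T120D (5.45% and 7.65% over all tested genes), and the summed RPKM of the list was 2317 to 2681 in the T120D lines and 3074 in wt. Pdgfra, a receptor gene of mesenchymal cells, was at 12.7 ± 1.72 RPKM (SD, n = 4) versus 43.5, Col3a1, a fibrillar collagen gene, at 15.2 ± 1.90 against 45.2, and Thy1, the higher marker, at 55.0 ± 7.26 against 20.3. Pdgfrb, a related receptor gene, was at 8.004 ± 0.639 RPKM against 18.5, and S100a4, a calcium-binding protein gene, at 994 ± 105 against 1363. The call of S100a4 (log2 difference -0.46, limma adjusted p = 0.03) ended in 7 of 12 alternatives, with a limma adjusted p of 0.0503 to 0.364. They include leaving out line 3, 15 or 18. Lum, the marker below the filter and so not tested, was at 0.181 ± 0.148 RPKM (SD, n = 4) in the T120D lines and 3.89 in wt. Of the cartilage markers, Sox9 was at 13.3 ± 1.38 RPKM against 30.8, while Col2a1 stayed at or under 0.0759 RPKM in every line. Their part in the CCN differences was not tested. In bulk RNA, fewer cells of a kind and less RNA per cell cannot be told apart.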

How the data were processed

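The RPKM values, for 14454 genes in each line, were deposited by the authors, per the file headers. Partek and the mouse build mm9 appear in the submitters' processing notes; libraries were made with a stranded mRNA kit, per the labels' protocols. How reads were aligned, annotated and assigned by strand is not given in the sources used here; overlapping genes are therefore uncertain.

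Values were analysed as log2(RPKM + 1), on which scale the change of low genes is understated. The 10052 genes whose 5-line mean reached 1 RPKM were tested with limma 3.58.1 in R 4.3.3 (empirical Bayes with a trend, two-sided, Benjamini-Hochberg adjustment over all of them). With 1 wt line, the spread was that of the T120D lines (3 residual and 5.99 prior degrees of freedom). For wt the same spread was assumed, and p-values measure only the spread between these samples, which may be technical.

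The members and lists were chosen with earlier results of these data known. In each list up to 6 called genes with the highest absolute difference were named, with fewer than 2 calls the 2 most abundant genes as well, and for each tested member the 3 most similar genes. Axl, Tead4, Egr1, Vim, Lum, Ptpn14, Raet1d, Tmem200a, Ada and Slpi fall outside this rule and were named after their values were seen. Lists were described by counts and medians, with no test of a list. Depth was estimated from genes with 1 coding transcript in GENCODE M21; under 20 reads, 47.4% to 54.5% of their values lay within 0.05 of a whole read (10% by chance). Scripts were tested on simulated data. Gene names were matched to RefSeq for 14378 of 14454 symbols.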

Additional observations from a re-analysis of the deposited data

Results flagged for a closer look

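Within the T120D group, 5 of 61 genes checked had 1 line far from the other 3 (by Dixon's criterion for 4 values at the 95% level); chance flags about 1 in 20 such groups. Wisp1 was at 8.45 RPKM in line 15 and at 9.12 to 9.15 in the other T120D lines, a gap within the counting interval of its 113 reads (6.97 to 10.2 RPKM). Stub1 was at 24.7 RPKM in line 15 against 26.4 to 26.8, but it was picked for its likeness to Wisp1 over these same lines. Its flag is therefore not separate from that of Wisp1. Dcn was at 24.5 RPKM in line 6 against 11.7 to 12.7. S100a4 was at 1150 RPKM in line 6 against 927 to 961. Enpp2 was at 0.144 RPKM in line 3 against 0.228 to 0.234, all far under the 10.9 RPKM of wt. These T120D values were also far below 1 RPKM. Their reads were not inferred, so counting error was not set against this gap.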

How the results depend on the processing

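The calls of Ctgf, Cyr61 and Wisp2 and the lack of a call for Wisp1 held under all 12 alternatives run. The log2 difference ranged from 3.58 to 3.71 for Ctgf (highest limma adjusted p 0.00137), from 2.28 to 2.44 for Cyr61 (0.0173), from -1.40 to -1.24 for Wisp2 (0.047) and from 0.16 to 0.19 for Wisp1 (lowest limma adjusted p 0.265). They include leaving out each T120D line and averaging lines 3, 15 and 18 into 1 sample. The log2 difference of Nov moved from 0.007 to 0.031 with a pseudocount of 0.1 RPKM, both from 1 read per line. Over all genes, 769 higher and 548 lower calls became 455 and 361 by limma without a trend, and 415 and 596 with no expression filter. Of 664 refits of 56 other named genes, 616 kept the direction and the call or lack of one, 36 lost a call and 9 gained one. In the other 3 the small difference of Sep15, -0.007, became 0.015 with median scaling and ranged from -0.035 to 0.022 without 1 line. The 56 genes include Edn1, Enpp2 and Tnfrsf11b, which are described above with no test. Calls of Edn1 and Tnfrsf11b are among the 36 lost. The higher calls of the signature list numbered 4 to 6. No paired analysis was possible because there was only a single wt line. Depth limits Nov and Wisp3, and the single wt line limits every difference.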
